A study of Mus musculus with 2 samples.

Results

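The genes described here encode the TGF-beta ligands (Tgfb1, Tgfb2 and Tgfb3), proteins that release or hold the latent ligand (Itgb8, Lrrc33 and Lrrc32), the receptors (Tgfbr1, Tgfbr2 and Tgfbr3) and the intracellular inhibitor Smad7. They were taken by symbol from the gene list that accompanies the count matrices, where 9 of the 10 symbols were found among 32285 genes. The tenth, Lrrc33, is a synonym of Nrros in the RefSeq gene table, and Nrros, which is on the list, was used for it, so that 10 genes were read. The genes were chosen by name, though with earlier results of these data known. Their levels were read in each cell type named in the optic nerve libraries, to show which cells carry the transcripts of the ligands and which carry those of the receptors.

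TGF-beta is secreted in a latent form, in which the propeptide stays wrapped around the growth factor and is tethered to the matrix or to a cell-surface protein such as NRROS (LRRC33), known from microglia and other macrophages, or LRRC32 (GARP), known from regulatory T cells. The integrin beta subunit encoded by Itgb8 pairs with the alpha-v subunit and binds an Arg-Gly-Asp (RGD) motif in the propeptide, which frees or exposes the ligand. The active ligand joins the type II receptor (TGFBR2) with the type I receptor (TGFBR1), betaglycan (TGFBR3) presents ligand to them, and SMAD7, itself induced by the pathway, blocks the type I receptor. In the central nervous system the pathway is known for maintaining the identity of microglia.

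Single-cell RNA sequencing was performed on optic nerves from Nf1-OPG mice, a model of the optic pathway glioma of neurofibromatosis type 1. All mice were Nf1 flox/mut with GFAP-Cre on a C57BL/6 background, so the mutant Nf1 allele was carried by every cell and the floxed allele was lost only where the GFAP promoter had driven Cre. Both libraries came from nerves taken at 12 weeks of age, the labels giving 10 mice pooled into a suspension, and are called C-ON (titled control) and FMC_new (titled FMC new) after the labels, which do not say what sets them apart. As both carry the same genotype and no treatment is named, they were used as repeats of 1 group, and no wild-type nerve was analysed here. The p-values measure only how far sums of counts per class differed between these 2 libraries beyond the difference common to all classes. That spread was pooled over the classes, and the sums of a library share its cell suspension.

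After filtering, 8834 of 10845 barcodes were kept in C-ON and 16818 of 21341 in FMC_new, with a median of 6811 and 4676 UMIs (unique molecular identifiers, counted transcript molecules) per kept cell. Cells were clustered without the 10 genes, 28 of 37 clusters were given 1 of 16 cell type names from marker genes, and 9 clusters with 3043 cells (11.9%) stayed unnamed. The libraries differed in make-up, since oligodendrocyte-like cells were 60.9% of the cells in C-ON and 14.3% in FMC_new, and pituitary endocrine cell-like cells were 0.215% and 3.62%. The last shares leave out unnamed clusters 16 (604 cells) and 18 (494 cells), with 0 cells in C-ON and Tbx19 among their leading genes. At a clustering resolution of 1.2, a cluster of 475 cells led by much the same genes as cluster 18 was named pituitary endocrine cell-like. The libraries shared 188 cell barcodes, of which 26 fell in the same class. Not every listed marker was found in its class. The neuron-like cluster passed the limits for 4 of 8 markers, with 0 UMIs of Nefl and Nefm in both libraries and 2 and 0 of Rbfox3, and a pituitary endocrine cell-like cluster for 4 of 10. The neuron-like cluster was led by Avp, Nms and Prokr2. Whether the neuron-like and pituitary endocrine cell-like cells came from the nerve or from neighbouring tissue was not tested. Fcer2a had 0 UMIs in B cell-like cells of C-ON, and Dpt 1 UMI in fibroblast-like cells of each library. Markers of abundant cells were also seen in other classes: the 10 oligodendrocyte markers summed to 12092 CPM (UMIs of a gene per 1000000 UMIs) in T cell-like cells of C-ON, against 72116 CPM in oligodendrocyte-like cells. The tumor-like class was named from Pdgfra, Cspg4, Vcan, Gpr17 and similar genes, which oligodendrocyte progenitors of a healthy nerve also express, so tumor cells and such progenitors cannot be told apart here. Levels are given as CPM of the UMIs summed over the cells of a class in a library, with exact Poisson 95% intervals that cover counting error only.

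The motif that the integrin binds is shown because it separates the ligands. In the GENCODE transcripts of build GRCm38, an in-frame RGD triplet of codons occurs 1 time in the coding sequence of Tgfb1-201, starting at codon 244 of 390 in exon 5 of 7, and 1 time in Tgfb3-201, starting at codon 261 of 412 in exon 5 of 7. The coding sequence of Tgfb2-201, with 414 codons, holds 0 in-frame RGD triplets. The stretches below lie at chr7:25697133-25697159 on the plus strand and chr12:86062156-86062182 on the minus strand, and are written 5′ to 3′ along the transcript with the RGD codons in capitals.
Tgfb1: cccaaacgtCGGGGCGACctgggcacc
Tgfb3: gaccatggcCGTGGAGACctggggcgt

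The genes lie apart in the genome. In GRCm38, Tgfb1 spans chr7:25687002-25705077, Tgfb2 chr1:186622792-186705989, Tgfb3 chr12:86056745-86079041, Itgb8 chr12:119158022-119238802, Nrros chr16:32142785-32165594 and Lrrc32 chr7:98489283-98502181. Tgfbr1 spans chr4:47353222-47414931, Tgfbr2 chr9:116084293-116175360, Tgfbr3 chr5:107106570-107289629 and Smad7 chr18:75367529-75395935. Among genes in the count matrices, Gm29491 overlaps Tgfb2 on the other strand, and Ttll5 and Gm48008 overlap Tgfb3 on the other strand; whether counting kept the strands apart is not stated in the sources used here, so the Tgfb2 and Tgfb3 values carry that uncertainty.

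To ask which cells carry the transcripts, counts were summed per class and library for the 12 classes with at least 20 cells in both libraries, and each class was compared with the mean of the other classes on the log2 scale (edgeR quasi-likelihood test). A gene was called where the Benjamini-Hochberg adjusted p over 15372 genes was under 0.05 and the fold at least 2. Lrrc32 was too sparse to be tested, so 9 of the 10 genes entered. Because the reference is a mean of logs, classes at or near 0 pull it down, and the fold change of a class that is high is larger than the ratio of the CPM values would give. A class without UMIs could also not be called lower where another class had none, which touches Tgfb2 in ILC2-like and neuron-like cells. The background is the share of all genes tested that was called the same way in the same class.

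Microglia-like and border macrophage-like cells had the most calls in the higher direction, 5 in each. In microglia-like cells 5 of the 9 genes tested were called higher (background 15.6%) and 1 lower (background 3.79%), with a median log2 fold change of 1.83 against 0.05 over all genes tested. In border macrophage-like cells 5 of the 9 genes tested were called higher (background 14.5%) and 1 lower (background 2.83%), with a median log2 fold change of 1.71 against 0.05 over all genes tested. In dendritic cell-like cells 2 of the 9 genes tested were called higher (background 14.9%) and 0 lower (background 5.13%). In fibroblast-like cells 4 of the 9 genes tested were called higher (background 17.1%) and 1 lower (background 5.93%), with a median log2 fold change of 0.35 against 0.07 over all genes tested.

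Among lymphoid classes, higher calls outnumbered lower calls in all but ILC2-like cells. Higher calls also outnumbered lower calls over all genes tested in each of these classes. In T cell-like cells 4 of the 9 genes tested were called higher (background 11.9%) and 0 lower (background 5.34%). For B cell-like cells the counts were 3 higher (background 8.15%) and 0 lower (background 3.5%), for NK cell-like cells 2 higher (background 8.35%) and 0 lower (background 2.78%), and for plasma cell-like cells 1 higher (background 12%) and 0 lower (background 4.11%). ILC2-like cells, with 27 and 66 cells, had 0 higher (background 4.25%) and 1 lower (background 1.42%).

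Neural classes carried most of the calls in the lower direction. In oligodendrocyte-like cells 3 of the 9 genes tested were called higher (background 23.5%) and 4 lower (background 11%), with a median log2 fold change of -1.25 against 0.16 over all genes tested. In tumor-like cells 2 of the 9 genes tested were called higher (background 24.1%) and 4 lower (background 5.61%), with a median log2 fold change of -0.50 against 0.18 over all genes tested. Neuron-like cells, with 35 and 20 cells, had 2 higher (background 17.3%) and 5 lower (background 15.2%). Over all 12 classes, 33 gene and class pairs were called higher and 17 lower, of 108 tested, and all 50 calls had the same sign in each library alone. As the calls were made from these same 2 libraries, the shared sign is no separate support for them.

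Tgfb1, the main ligand of immune cells, was high in most immune classes and low in the neural ones. Its level was 244 CPM in C-ON and 203 CPM in FMC_new for microglia-like cells, with intervals of 218 to 273 and 193 to 213. It was 219.5 and 184 CPM in border macrophage-like, 224 and 161 CPM in dendritic cell-like, 207 and 284 CPM in NK cell-like and 156 and 167 CPM in T cell-like cells, C-ON first. The B cell-like and ILC2-like classes lay at 139 and 157 CPM and at 129.6 and 214 CPM. In contrast, tumor-like cells had 11.1 CPM in C-ON and 23.6 CPM in FMC_new, oligodendrocyte-like cells 1.42 CPM in C-ON and 9.66 CPM in FMC_new, and fibroblast-like cells 31.1 CPM in C-ON and 41.9 CPM in FMC_new. The 7 immune classes tested other than plasma cells did not overlap with the tumor-like, oligodendrocyte-like, fibroblast-like, neuron-like or plasma cell-like classes in either library.

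Against the mean of the other classes, Tgfb1 was called higher in 6 of 12 classes, with log2 fold changes of 2.11 ± 0.32 (SE), adjusted p = 5.29e-05 in dendritic cell-like, 2.10 ± 0.32 (SE) in microglia-like, 1.98 ± 0.32 (SE) in border macrophage-like, 1.86 ± 0.34 (SE) in NK cell-like, 1.39 ± 0.33 (SE) in T cell-like and 1.23 ± 0.39 (SE), adjusted p = 0.0367 in B cell-like cells. ILC2-like cells, at 1.47 ± 0.44 (SE), adjusted p = 0.0589, missed the threshold, and the B cell-like call was lost without the library term, with RLE scaling, after thinning to 1000 UMIs per cell and without the neuron-like class. The gene was called lower in tumor-like (-2.47 ± 0.48 (SE), adjusted p = 0.000479), oligodendrocyte-like (-4.02 ± 0.52 (SE), adjusted p = 3.69e-06) and neuron-like cells (-4.23 ± 0.86 (SE), adjusted p = 0.000798), the last with 0 UMIs in C-ON and 3 in FMC_new. After thinning the tumor-like and oligodendrocyte-like calls were lost, and the tumor-like value was as small as -1.35 among the alternatives. The difference between microglia-like and tumor-like cells was 4.19 ± 0.57 (SE), adjusted p = 1.45e-05 on the log2 scale, and between T cell-like and tumor-like cells 3.54 ± 0.56 (SE), adjusted p = 4.94e-05. In the order of fitted levels, dendritic cell-like, microglia-like, border macrophage-like, NK cell-like, ILC2-like, T cell-like, B cell-like, plasma cell-like, fibroblast-like, tumor-like, oligodendrocyte-like and neuron-like, only the tumor-like and oligodendrocyte-like neighbours differed (1.42 ± 0.54 (SE), adjusted p = 0.0363). Microglia markers in tumor-like cells stood at 2.28% and 5.09% of their microglia-like level, and Tgfb1 at 4.55% and 11.6%; the part of admixed RNA in the tumor-like level was not tested.

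**Figure D1:**
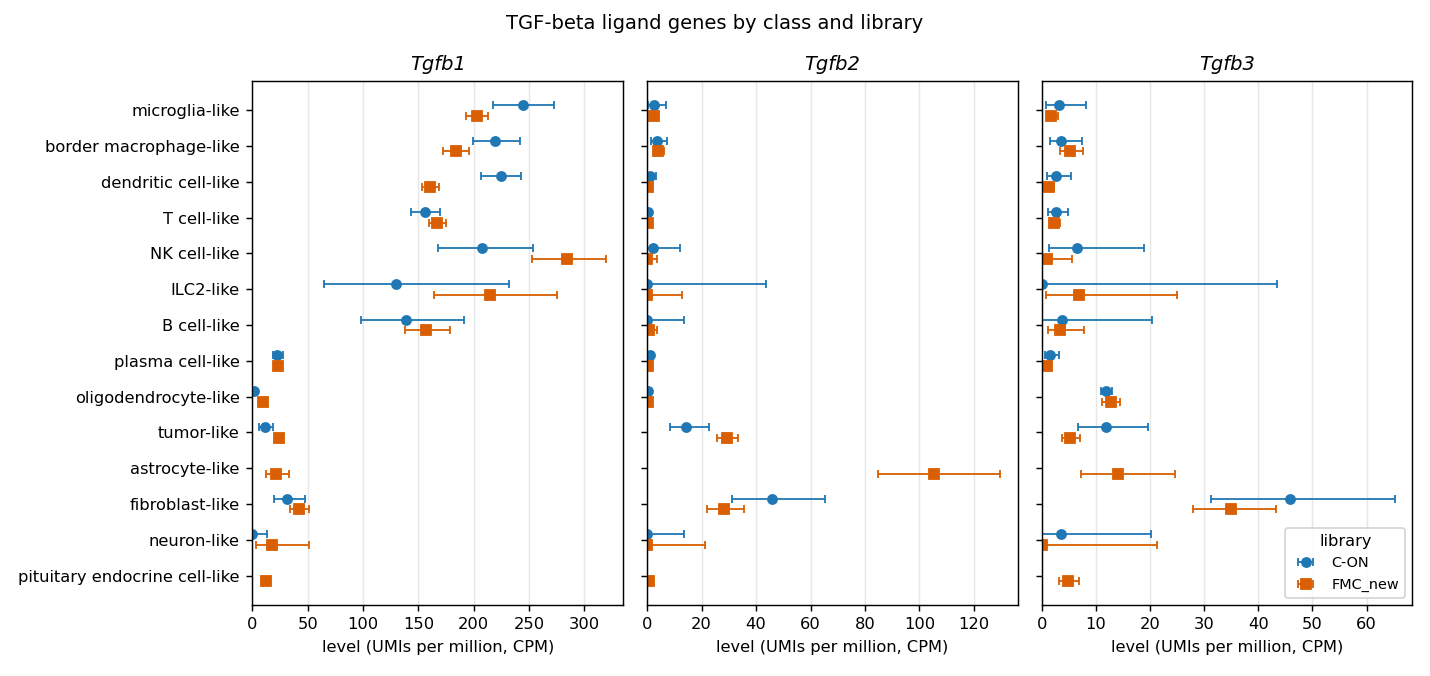
Levels of Tgfb1, Tgfb2 and Tgfb3 (CPM, linear axis) for classes with at least 20 cells in that library (neutrophil-like and plasmacytoid dendritic cell-like cells are not drawn); circles are C-ON, squares are FMC_new and bars are exact Poisson 95% intervals. Tgfb1 is high in most immune classes, Tgfb2 in astrocyte-like, fibroblast-like and tumor-like cells, and Tgfb3 in fibroblast-like cells. The extent of the astrocyte-like class changed with the clustering resolution.

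Tgfb2, the ligand whose coding sequence lacks an RGD motif, was found mainly outside the immune classes. Fibroblast-like cells had 45.9 CPM in C-ON and 28.1 CPM in FMC_new (intervals 31.2 to 65.2 and 21.8 to 35.5), and tumor-like cells 14.3 CPM in C-ON and 29.5 CPM in FMC_new (intervals 8.46 to 22.6 and 25.8 to 33.6). Astrocyte-like cells, with 213 cells in FMC_new, had 105 CPM there, with an interval of 84.8 to 129.6, and 1 UMI over 19 cells of C-ON, so this class was not tested. At clustering resolutions of 0.4 and 1.2 the astrocyte-like class held 121 FMC_new cells. At 1.2 an unnamed cluster of 92 FMC_new cells was led by Scn7a, which also led the astrocyte-like cluster used here, Fndc3c1 and Rax. The 105 CPM thus covers cells whose astrocyte-like name changed with the resolution. The remaining classes tested were at most 4.02 CPM, the level of border macrophage-like cells in FMC_new.

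Fibroblast-like (5.59 ± 0.45 (SE), adjusted p = 1.16e-07) and tumor-like cells (4.83 ± 0.44 (SE), adjusted p = 2.78e-07) were called higher for Tgfb2, as were border macrophage-like cells (2.63 ± 0.72 (SE), adjusted p = 0.0126) at 3.59 and 4.02 CPM. The last call rests on a low level and was lost with a minimum of 50 cells per class and after thinning, and these log2 values depend on how the fit treats the classes at 0, ILC2-like and neuron-like, so they are no bounds. Fibroblast-like and tumor-like cells did not pass the test of their difference (0.69 ± 0.43 (SE), adjusted p = 0.252), whereas tumor-like cells exceeded oligodendrocyte-like cells (0.366 and 0.264 CPM) by 5.59 ± 0.52 (SE), adjusted p = 5.66e-07 on the log2 scale. Within the tumor-like class the cells of cluster 9, with 1062 cells, had 17.0 and 35.9 CPM of Tgfb2, and those of cluster 17, with 568 cells, 0 and 12.6 CPM, the first of them 0 UMIs over 30 cells. Cluster 17 also had the shallower cells, with a median of 2405 UMIs against 6103.

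Tgfb3 was highest in fibroblast-like cells, at 45.9 CPM in C-ON and 35 CPM in FMC_new. Oligodendrocyte-like cells followed with 11.9 CPM in C-ON and 12.8 CPM in FMC_new, with narrow intervals of 10.9 to 12.9 and 11.2 to 14.5. Tumor-like cells lay at 11.9 and 5.28 CPM, and the immune classes between 0 and 6.92 CPM. The calls were higher in fibroblast-like (3.23 ± 0.28 (SE), adjusted p = 7.28e-08) and oligodendrocyte-like cells (1.76 ± 0.25 (SE), adjusted p = 1.39e-05), with 0 classes called lower. Both steps at the top of the order passed the test, fibroblast-like above oligodendrocyte-like cells by 1.34 ± 0.34 (SE), adjusted p = 0.00325 and oligodendrocyte-like above tumor-like cells by 1.21 ± 0.37 (SE), adjusted p = 0.0119 on the log2 scale.

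Itgb8, the integrin subunit that activates RGD-bearing latent TGF-beta, was carried by neural cells and by T cells. Oligodendrocyte-like cells had 136 CPM in C-ON and 162 CPM in FMC_new, tumor-like cells 112 CPM in C-ON and 132 CPM in FMC_new and neuron-like cells 98.0 CPM in C-ON and 98.3 CPM in FMC_new. T cell-like cells had 75.6 CPM in C-ON and 96.5 CPM in FMC_new. Astrocyte-like cells of FMC_new, not tested and of an extent that changed with the clustering resolution, had 123 CPM. The other immune classes stayed between 0 and 34.5 CPM, microglia-like cells among them with 14.3 and 9.22 CPM, and fibroblast-like cells had 45.9 and 32.6 CPM.

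Itgb8 was called higher in oligodendrocyte-like (2.88 ± 0.25 (SE), adjusted p = 3.42e-08), tumor-like (2.07 ± 0.27 (SE), adjusted p = 8.19e-06), T cell-like (1.89 ± 0.27 (SE), adjusted p = 4.71e-05) and neuron-like cells (1.41 ± 0.42 (SE), adjusted p = 0.0140), the last lost after thinning. The 4 classes did not differ from their neighbours in the order of fitted levels, for example oligodendrocyte-like from tumor-like cells by 0.74 ± 0.37 (SE), adjusted p = 0.107. T cell-like cells exceeded NK cell-like cells by 2.75 ± 0.52 (SE), adjusted p = 0.00563 on the log2 scale. Relative to oligodendrocyte-like cells, oligodendrocyte markers in T cell-like cells stood at 16.8% and 7.61%, and Itgb8 at 55.6% and 59.7%. For tumor-like cells the markers stood at 16.3% and 11.3% and Itgb8 at 82.1% and 81.7%. For NK cell-like cells the markers stood at 25.7% and 8.27% and Itgb8 at 25.4% and 1.84%. The part of admixed RNA in these levels was not tested.

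Within the oligodendrocyte-like class, Itgb8 varied among clusters. Cluster 11, with 892 cells and led by Grm3, Spock1 and Ctnna3, had 289 and 374 CPM, against 105 and 126 CPM in cluster 0, 113 and 117 CPM in cluster 1 and 115 and 163 CPM in cluster 3. The level in cluster 11 was above those of clusters 0, 1 and 3 in each library. As the clusters were defined on these cells, the values are a description with no test.

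Within the T cell-like class, cells were split by the UMIs of Foxp3, the regulatory T cell factor, and, among cells without it, of Cd4 or Cd8a. Cells without a Foxp3 UMI that had UMIs of both Cd4 and Cd8a, or of neither, were left out. Foxp3-positive cells (72 and 332 cells) had 330.1 CPM in C-ON and 318 CPM in FMC_new, with intervals of 269 to 401 and 287 to 351. Cd4-positive cells without Foxp3 (150 and 549 cells) had 83.0 CPM in C-ON and 140.3 CPM in FMC_new, and Cd8a-positive cells without Foxp3 (421 and 1361 cells) 44.0 CPM in C-ON and 40.9 CPM in FMC_new. The 3 gates stood in the same order in both libraries with intervals that did not overlap, Foxp3-positive cells being 7.50-fold and 7.77-fold above Cd8a-positive cells. Median depths were similar, between 3027 and 3728 UMIs per cell, and only 2 libraries stand behind the order, so no test was made.

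**Figure D2:**
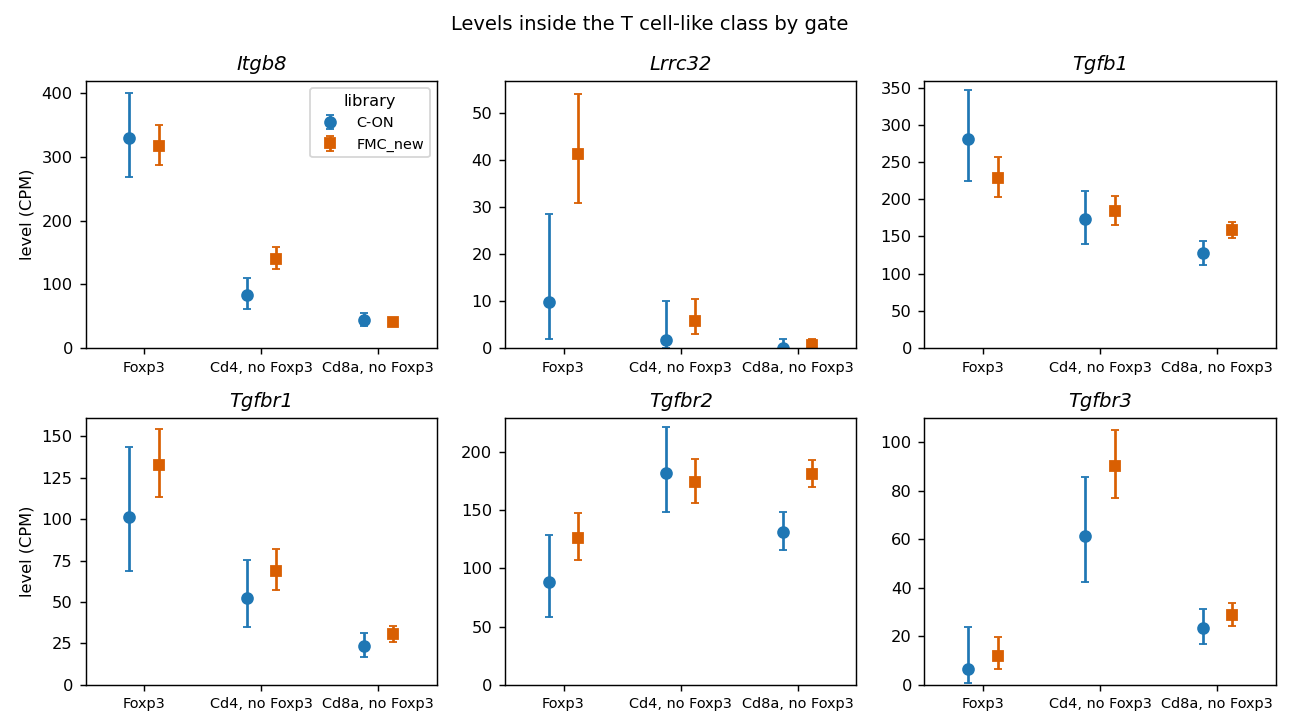
Levels (CPM) of 6 genes in T cell-like cells with a Foxp3 UMI, with a Cd4 UMI and no Foxp3 UMI, and with a Cd8a UMI and no Foxp3 UMI. Cells without a Foxp3 UMI that had UMIs of both Cd4 and Cd8a are left out. Circles are C-ON, squares are FMC_new and bars are exact Poisson 95% intervals. Itgb8, Lrrc32 and Tgfbr1 are highest in Foxp3-positive cells of both libraries, and Tgfbr3 is highest in the Cd4-positive cells without Foxp3.

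Lrrc32, the surface anchor of latent TGF-beta on regulatory T cells, was sparse, with 13 UMIs in C-ON and 121 in FMC_new over all kept cells. T cell-like cells held 6 and 76 of these UMIs, which is 46.2% and 62.8%. Foxp3-positive cells had 9.80 CPM in C-ON and 41.3 CPM in FMC_new, with intervals of 2.02 to 28.7 and 30.9 to 54.2. Cd4-positive cells without Foxp3 had 1.80 and 5.87 CPM, so the difference between these gates was not detectable in C-ON, where it rests on 3 UMIs and 1 UMI, and lay outside the intervals in FMC_new. Border macrophage-like, NK cell-like, ILC2-like and neuron-like cells had 0 UMIs in both libraries, which in border macrophage-like cells allows a level of up to 1.54 CPM in C-ON and 0.603 CPM in FMC_new.

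Nrros, the myeloid anchor of latent TGF-beta, followed the myeloid and B cell classes. Its level was 259 CPM in C-ON and 257 CPM in FMC_new for border macrophage-like cells, 229 CPM in C-ON and 174 CPM in FMC_new for dendritic cell-like cells and 134 CPM in C-ON and 152 CPM in FMC_new for microglia-like cells. B cell-like cells had 102 CPM in C-ON and 105 CPM in FMC_new. T cell-like cells, at 21.5 and 23.4 CPM, and tumor-like cells, at 11.1 and 18.9 CPM, were well below all 4 in both libraries.

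The 4 classes were called higher, with log2 fold changes of 3.23 ± 0.17 (SE), adjusted p = 4.4e-10 in border macrophage-like, 3.03 ± 0.17 (SE), adjusted p = 7.04e-10 in dendritic cell-like, 2.28 ± 0.19 (SE), adjusted p = 4.56e-08 in microglia-like and 1.55 ± 0.23 (SE), adjusted p = 0.000136 in B cell-like cells. Tumor-like (-1.78 ± 0.27 (SE)), fibroblast-like (-1.85 ± 0.31 (SE)), oligodendrocyte-like (-2.50 ± 0.26 (SE)) and neuron-like cells (-2.92 ± 0.51 (SE)) were called lower. These 4 lower calls of Nrros were lost after thinning, and the tumor-like value was as small as -0.69 among the alternatives. Border macrophage-like and microglia-like cells did not pass the test of their difference (0.87 ± 0.28 (SE), adjusted p = 0.108). Microglia-like cells were not uniform. Cluster 5, with 1293 cells, had 143 and 175 CPM, and cluster 13, with 641 shallower cells (median 1690 UMIs against 5839), had 22.1 and 25.5 CPM.

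**Figure D3:**
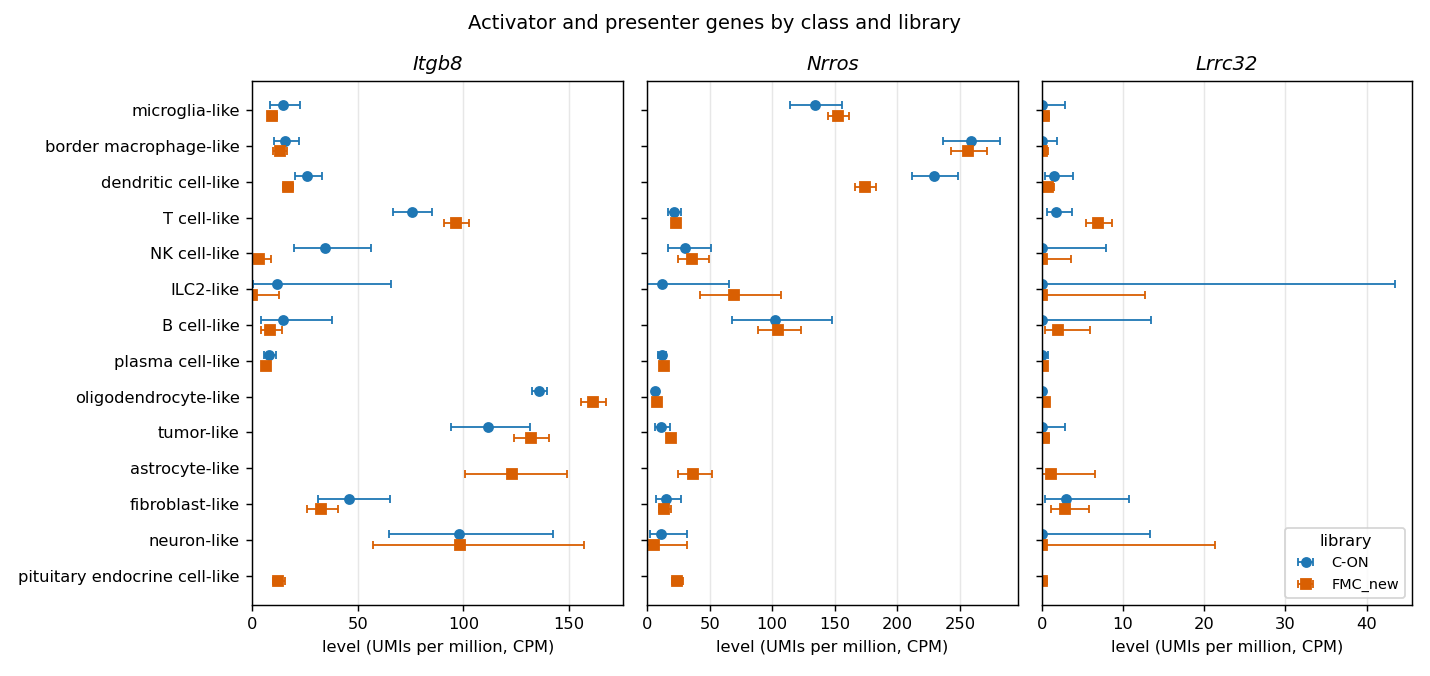
Levels (CPM, linear axis, scale differing by panel) of Itgb8, Nrros and Lrrc32 for classes with at least 20 cells in that library (neutrophil-like and plasmacytoid dendritic cell-like cells are not drawn); circles are C-ON, squares are FMC_new and bars are exact Poisson 95% intervals. Itgb8 is high in neural and T cell-like cells, Nrros in myeloid and B cell-like cells, and Lrrc32 stays below 7 CPM in each class drawn.

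Tgfbr1, the type I receptor, was highest in microglia-like cells, at 589.5 CPM in C-ON and 500.2 CPM in FMC_new (intervals 548 to 633 and 485 to 516). Border macrophage-like cells had 320.1 CPM in C-ON and 349 CPM in FMC_new. Below them came dendritic cell-like cells with 89.9 and 98.3 CPM, fibroblast-like cells with 86.0 and 82.6 CPM, plasma cell-like cells with 62.5 and 76.2 CPM and tumor-like cells with 68.2 and 63.6 CPM. T cell-like cells had 38.0 and 51.4 CPM, oligodendrocyte-like cells 22.6 and 37.4 CPM and ILC2-like cells 11.8 and 13.8 CPM. The microglia-like and border macrophage-like values did not overlap with those of any other class tested.

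Tgfbr1 was called higher in microglia-like (3.40 ± 0.11 (SE), adjusted p = 1.86e-12), border macrophage-like (2.66 ± 0.12 (SE), adjusted p = 9.24e-11) and plasma cell-like cells (1.46 ± 0.13 (SE), adjusted p = 1.12e-07), and lower in oligodendrocyte-like (-1.25 ± 0.16 (SE)), neuron-like (-1.82 ± 0.24 (SE)) and ILC2-like cells (-2.69 ± 0.32 (SE)). The oligodendrocyte-like and neuron-like calls were lost after thinning. In CPM the plasma cell-like mean was 69.4 against 122 over the other classes, so this call, on the log2 scale with scaled library sizes, does not mean that the class was above the CPM mean of the others. It was lost with a minimum of 50 cells per class. Microglia-like cells exceeded tumor-like cells by 3.58 ± 0.21 (SE), adjusted p = 6.19e-09 on the log2 scale. The step from microglia-like to border macrophage-like cells did not pass the test (0.68 ± 0.19 (SE), adjusted p = 0.0514). In microglia-like cluster 5 the level was 628 and 561 CPM and in the shallower cluster 13 it was 88.3 and 154 CPM.

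Tgfbr2, the type II receptor that binds the ligand, was spread over more classes. Microglia-like cells had 168 CPM in C-ON and 163 CPM in FMC_new, T cell-like cells 142 CPM in C-ON and 171 CPM in FMC_new, border macrophage-like cells 146 CPM in C-ON and 157 CPM in FMC_new and fibroblast-like cells 160.1 CPM in C-ON and 129.8 CPM in FMC_new. NK cell-like and B cell-like cells varied more between the libraries, at 104 and 228 CPM and 80.5 and 164 CPM. The receptor was low in tumor-like cells (7.13 CPM in C-ON and 20.3 CPM in FMC_new), oligodendrocyte-like cells (9.43 CPM in C-ON and 16.5 CPM in FMC_new) and neuron-like cells (0 and 2 UMIs).

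The 6 classes named first were called higher, from 1.83 ± 0.21 (SE), adjusted p = 2.38e-06 in microglia-like to 1.12 ± 0.25 (SE), adjusted p = 0.00388 in B cell-like cells. Without the neuron-like class the B cell-like, NK cell-like and fibroblast-like calls were lost. The lower calls were -2.29 ± 0.30 (SE), adjusted p = 4.59e-06 in oligodendrocyte-like, -2.61 ± 0.33 (SE), adjusted p = 4.47e-06 in tumor-like and -4.66 ± 0.60 (SE), adjusted p = 8.59e-06 in neuron-like cells, the last lost after thinning. Along the order of fitted levels only the step from plasma cell-like (17.9 and 21.8 CPM) to oligodendrocyte-like cells passed the test (1.89 ± 0.32 (SE), adjusted p = 8.06e-05). This log2 value, fitted with scaled library sizes, is larger than the CPM levels of the plasma cell-like and oligodendrocyte-like classes give in either library. Microglia-like cells exceeded tumor-like cells by 4.07 ± 0.36 (SE), adjusted p = 1.91e-07 and T cell-like cells exceeded tumor-like cells by 3.79 ± 0.35 (SE), adjusted p = 2.43e-07 on the log2 scale, while tumor-like and oligodendrocyte-like cells did not pass the test of their difference (0.29 ± 0.33 (SE), adjusted p = 0.971).

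Tgfbr3, or betaglycan, was highest in fibroblast-like cells, followed in CPM by neuron-like and T cell-like cells among the classes tested. Fibroblast-like cells had 191 CPM in C-ON and 175 CPM in FMC_new and pituitary endocrine cell-like cells, with 609 cells in FMC_new and not tested, 91.6 CPM there. T cell-like cells had 28.6 CPM in C-ON and 40.0 CPM in FMC_new and neuron-like cells 32.7 CPM in C-ON and 52.0 CPM in FMC_new, whereas microglia-like cells had 0 UMIs in C-ON and 3.35 CPM in FMC_new. Calls were higher in fibroblast-like (4.49 ± 0.25 (SE), adjusted p = 2.21e-10), T cell-like (2.08 ± 0.28 (SE), adjusted p = 1.9e-05) and neuron-like cells (1.73 ± 0.58 (SE), adjusted p = 0.0255), and lower in microglia-like (-1.74 ± 0.47 (SE)) and border macrophage-like cells (-1.96 ± 0.51 (SE)). After thinning the neuron-like call and both lower calls of Tgfbr3 were lost, and the border macrophage-like value was -0.76. Fibroblast-like cells exceeded T cell-like cells by 2.20 ± 0.38 (SE), adjusted p = 0.000159 on the log2 scale.

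The T cell gates differed in their receptors. Tgfbr3 was 61.3 and 90.1 CPM in Cd4-positive cells without Foxp3, C-ON first, 23.3 and 28.6 CPM in Cd8a-positive cells and 6.54 and 11.9 CPM in Foxp3-positive cells. Tgfbr1 stood in another order, with 101 and 133 CPM in Foxp3-positive, 52.3 and 68.8 CPM in Cd4-positive and 23.3 and 30.5 CPM in Cd8a-positive cells. Tgfbr2 was 88.2 and 126 CPM in Foxp3-positive cells and 182 and 174 CPM in Cd4-positive cells. The ligand Tgfb1 was 281 and 229 CPM in Foxp3-positive, 173 and 185 CPM in Cd4-positive and 127 and 158 CPM in Cd8a-positive cells. The intervals of Foxp3-positive and Cd8a-positive cells did not overlap in either library, whereas those of Foxp3-positive and Cd4-positive cells overlapped in FMC_new (203 to 257 and 166 to 205).

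Smad7, which is on mouse chromosome 18, was highest in oligodendrocyte-like cells, at 339 CPM in C-ON and 354 CPM in FMC_new (intervals 334 to 345 and 346 to 363). Microglia-like cells had 185 CPM in C-ON and 156 CPM in FMC_new, NK cell-like cells 205 CPM in C-ON and 146 CPM in FMC_new and T cell-like cells 160.1 CPM in C-ON and 135 CPM in FMC_new. Tumor-like cells had 53.1 CPM in C-ON and 43.8 CPM in FMC_new. It was called higher in oligodendrocyte-like (2.35 ± 0.17 (SE), adjusted p = 7.49e-09) and microglia-like cells (1.29 ± 0.20 (SE), adjusted p = 5.86e-05) and lower in tumor-like (-1.27 ± 0.25 (SE), adjusted p = 0.000444) and neuron-like cells (-2.48 ± 0.38 (SE), adjusted p = 5.65e-05). NK cell-like (0.94 ± 0.21 (SE), adjusted p = 0.00521) and T cell-like cells (0.85 ± 0.20 (SE), adjusted p = 0.00385) passed the p threshold but not the fold limit.

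Oligodendrocyte-like cells exceeded microglia-like cells by 0.98 ± 0.29 (SE), adjusted p = 0.00771 and tumor-like cells by 3.33 ± 0.32 (SE), adjusted p = 2.69e-07 on the log2 scale for Smad7. In tumor-like cells the gene stood at 15.7% and 12.4% of its oligodendrocyte-like level, and the oligodendrocyte markers at 16.3% and 11.3%; the part of admixed RNA in that level was not tested. In microglia-like cells Smad7 stood at 54.4% and 44.1%, above the markers at 12.7% and 6.43%. The shallower microglia-like cluster 13 had 66.2 and 23.1 CPM and cluster 5 194 and 179.8 CPM.

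**Figure D4:**
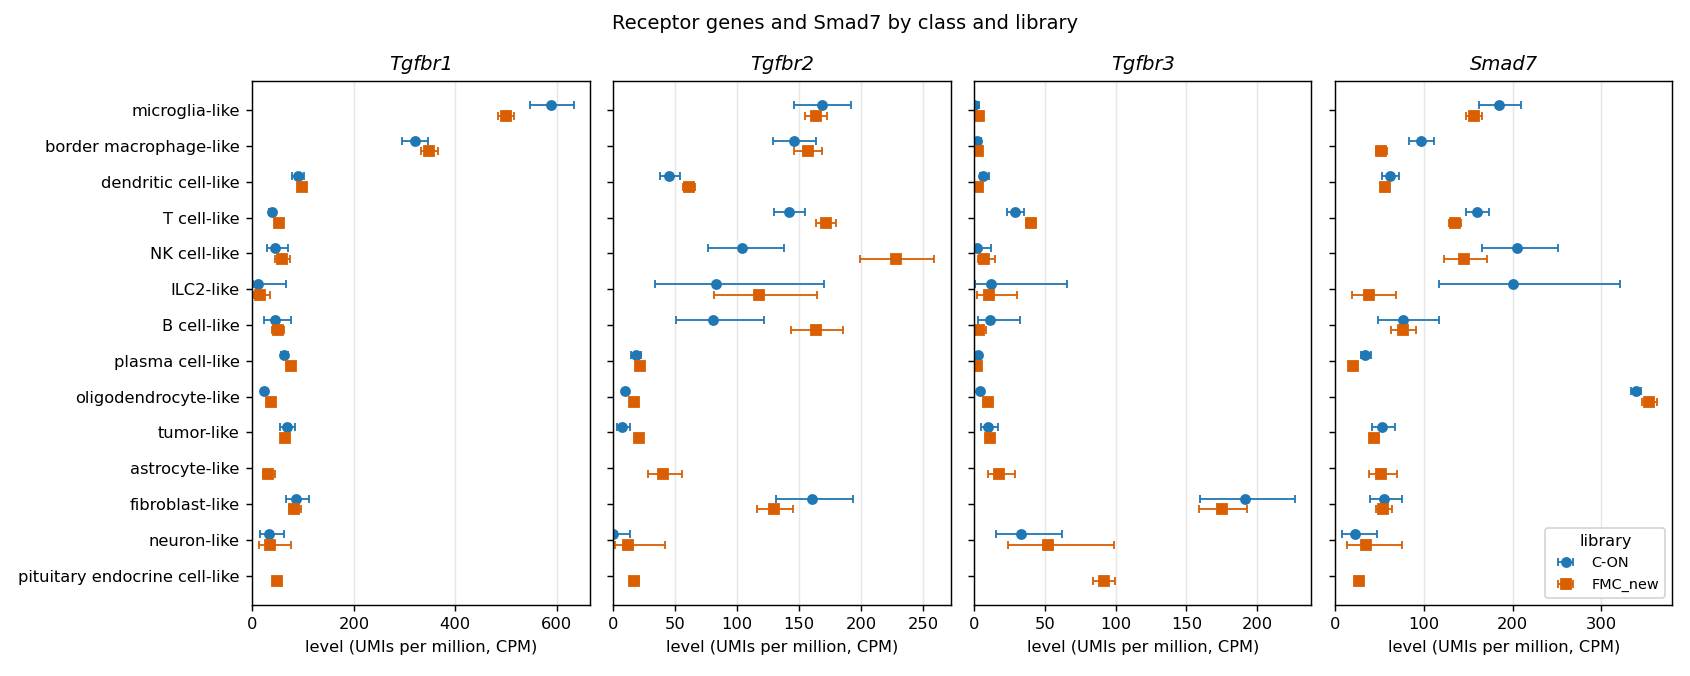
Levels (CPM, linear axis, scale differing by panel) of Tgfbr1, Tgfbr2, Tgfbr3 and Smad7 for classes with at least 20 cells in that library (neutrophil-like and plasmacytoid dendritic cell-like cells are not drawn); circles are C-ON, squares are FMC_new and bars are exact Poisson 95% intervals. Tgfbr1 is highest in microglia-like and border macrophage-like cells, Tgfbr2 is low in oligodendrocyte-like and tumor-like cells, Tgfbr3 is highest in fibroblast-like cells and Smad7 in oligodendrocyte-like cells.

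Read as a target, the tumor-like class had Tgfbr1 at 68.2 and 63.6 CPM but Tgfbr2 at 7.13 and 20.3 CPM and Smad7 at 53.1 and 43.8 CPM. Its clusters differed. In cluster 9, led by C1ql1 and Pdgfra, Tgfb1 was 6.60 and 8.17 CPM, Tgfbr2 3.77 and 10.7 CPM and Itgb8 116 and 161 CPM. In cluster 17, led by Gpr17 and with an immunoglobulin gene among its leading genes, Tgfb1 was 34.8 and 64.1 CPM, Tgfbr2 24.9 and 45.8 CPM and Itgb8 89.6 and 56.1 CPM. Markers of other cells also moved with cluster 17, whose part in these levels was not tested: all 10 microglia markers were detected and summed to 726 CPM in C-ON and 1314 CPM in FMC_new, against 121 and 116 CPM in cluster 9, and the 7 plasma cell markers summed to 10504 and 6183 CPM against 1010 and 958 CPM. In the same way oligodendrocyte-like cluster 20, with 401 cells, had Tgfb1 at 23.6 and 66.9 CPM and T cell markers at 744 and 862 CPM and microglia markers at 119.8 and 980.0 CPM, whose part was not tested either, whereas the remaining oligodendrocyte-like clusters had Tgfb1 at no more than 2.30 CPM over both libraries.

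Which class held a transcript also depended on how many cells it had and how deep they were, and fewer cells cannot be told from less RNA per cell in these sums. Oligodendrocyte-like cells held 89.1% of the Itgb8 UMIs in C-ON and 49.1% in FMC_new, 88.4% and 54.0% of the Smad7 UMIs, and 84.5% and 41.9% of the Tgfb3 UMIs. For Tgfb1 they held 2.78% and 2.15%, and T cell-like (23.2% and 21.5%), dendritic cell-like (25.5% and 19.7%), border macrophage-like (18.1% and 10.7%) and microglia-like cells (13% and 19.8%) held most. The 87 Tgfb2 UMIs of C-ON fell mainly in fibroblast-like (35.6%), tumor-like (20.7%) and oligodendrocyte-like cells (19.5%). Those of FMC_new fell mainly in tumor-like (38.2%) and unnamed cells (25%). Microglia-like cells held 22.2% and 37.6% of the Tgfbr1 UMIs, although they were 2.47% and 10.2% of the cells.

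**Figure D5:**
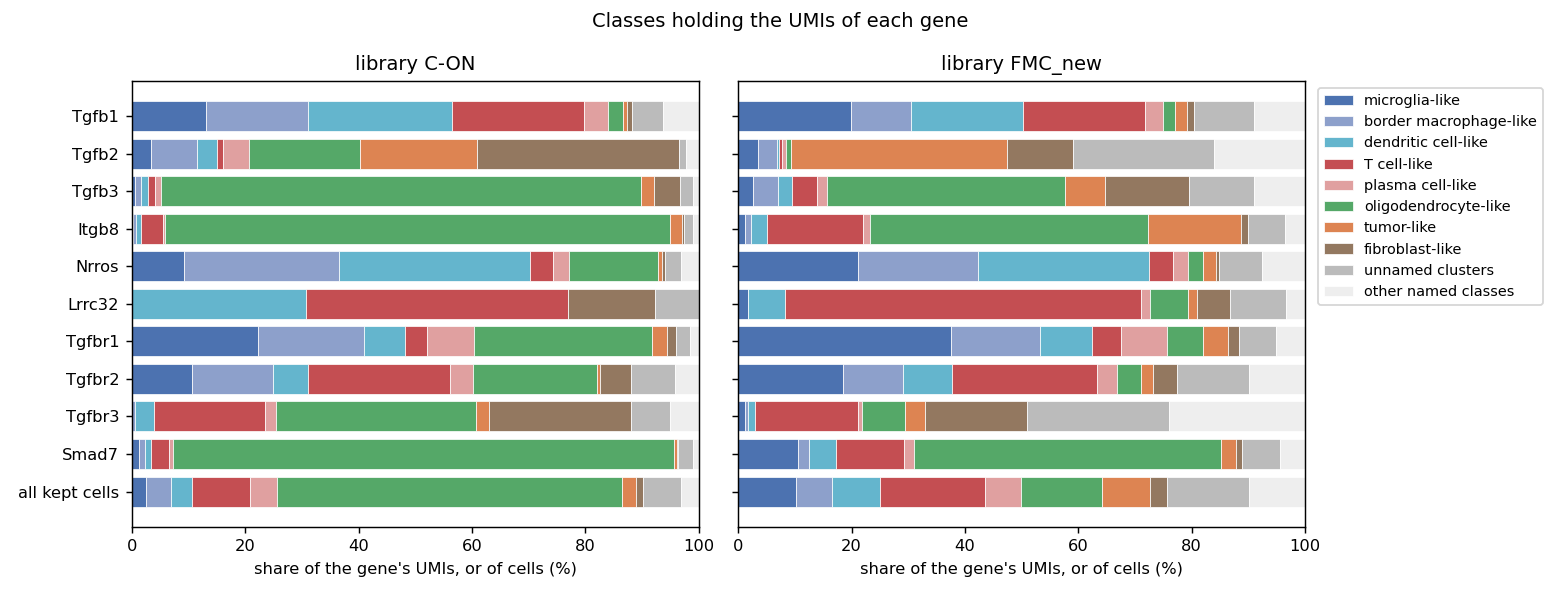
Share (%) of the UMIs of each gene held by each class, C-ON on the left and FMC_new on the right, with the make-up of all kept cells in the lowest bar. Most Itgb8, Tgfb3 and Smad7 UMIs of C-ON lie in oligodendrocyte-like cells, most Tgfb1 UMIs in myeloid and T cell-like cells and most Nrros UMIs in myeloid cells; the Lrrc32 bar of C-ON rests on 13 UMIs.

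The wider pathway was read from a list of 45 further genes for the latent complex, its activation, related receptors, Smads, inhibitors and target genes, of which 43 were tested. Unlike the 10 genes, those among them that vary most took part in the clustering, so these counts describe the classes and test nothing. The background in each is again the share of all genes tested. They were 22 of 43 higher (background 15.6%) and 0 lower (background 3.79%; median log2 fold change 1.31) in microglia-like cells, 20 of 43 higher (background 17.1%) and 2 lower (background 5.93%; median log2 fold change 1.47) in fibroblast-like cells and 19 of 43 higher (background 14.5%) and 0 lower (background 2.83%; median log2 fold change 0.99) in border macrophage-like cells. They were 13 of 43 higher (background 24.1%) and 2 lower (background 5.61%; median log2 fold change 0.31) in tumor-like cells, 10 of 43 higher (background 14.9%) and 0 lower (background 5.13%; median log2 fold change 0.40) in dendritic cell-like cells, 7 of 43 higher (background 11.9%) and 3 lower (background 5.34%; median log2 fold change -0.05) in T cell-like cells and 5 of 43 higher (background 23.5%) and 4 lower (background 11%; median log2 fold change -0.45) in oligodendrocyte-like cells. Neuron-like cells had 2 of 43 higher (background 17.3%) and 14 lower (background 15.2%). Plasma cell-like cells had 3 higher (background 12%) and 7 lower (background 4.11%), and B cell-like cells 2 higher (background 8.15%) and 5 lower (background 3.5%). ILC2-like cells had 5 higher (background 4.25%) and 2 lower (background 1.42%), and NK cell-like cells 8 higher (background 8.35%) and 1 lower (background 2.78%).

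By the size of the log2 fold change, the leading genes reported for microglia-like cells were Itgb5, another integrin beta subunit (5.55 ± 0.23 (SE)), and Acvrl1, a related type I receptor (5.46 ± 0.51 (SE)). In border macrophage-like cells they were Tgfbi, a target gene (7.12 ± 0.18 (SE)), Mmp9, a protease (6.45 ± 0.72 (SE)), and Acvrl1 (6.11 ± 0.45 (SE)). In tumor-like cells they were Ltbp4 (4.97 ± 0.37 (SE)) and Ltbp3 (4.0 ± 0.49 (SE)), which tie latent TGF-beta to the matrix, and the protease gene Mmp2 (4.31 ± 0.38 (SE)). In oligodendrocyte-like cells Plat, the tissue plasminogen activator, was called higher (4.35 ± 0.50 (SE)), and Id2 (-4.10 ± 0.51 (SE)) and Skil (-2.86 ± 0.25 (SE)) lower. In fibroblast-like cells Dcn and Col1a1 led, but both are on the marker list that named the class, and the third was Bgn, a matrix proteoglycan (9.46 ± 0.22 (SE)). In T cell-like cells Itgb5 was called lower (-2.62 ± 0.44 (SE)) and Tgif1 (2.26 ± 0.32 (SE)) and Id2 (2.17 ± 0.31 (SE)) higher.

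The genes whose levels followed each of the 9 were found by Pearson's r of log2(CPM + 1) over the 24 class and library sums, which share libraries and depth, so r is a description. Nearest to Tgfb1 were Casp8 (r = 0.984), Gpsm3 (r = 0.979) and Runx1 (r = 0.968), to Tgfb2 F3 (r = 0.931), Ramp2 (r = 0.926) and Cpxm1 (r = 0.924) and to Tgfb3 Bace2 (r = 0.900), Tns2 (r = 0.867) and Adamtsl3 (r = 0.865). Itgb8 ran with Ncdn (r = 0.882), Ankrd46 (r = 0.867) and Stambp (r = 0.864), and Nrros with Ccr1 (r = 0.934), Arhgap11a (r = 0.929) and H2-DMa (r = 0.929). Closest to Tgfbr1 were Gm2629 (r = 0.916), Csf3r (r = 0.915) and Fcgr1 (r = 0.912), to Tgfbr2 Txnip (r = 0.955), Casp8 (r = 0.917) and Rcsd1 (r = 0.915) and to Tgfbr3 Gm5784 (r = 0.873), Atp5j (r = 0.859) and Akap12 (r = 0.858). Smad7 ran with Dip2b (r = 0.866), Dnm2 (r = 0.865) and Dop1b (r = 0.850). Casp8 was among the nearest to both Tgfb1 and Tgfbr2.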

How the data were processed

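Single-cell suspensions of Nf1-OPG optic nerve were profiled with 10x 5′ chemistry. The authors deposited raw UMI counts per gene and barcode made with Cell Ranger 7.2.0, according to the file headers and the submitters' processing notes, on GRCm38; the study's methods name another version, and the use of intronic reads and strand is not given in the sources used here. No count was rescaled before deposit.

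From these counts, cells with 500 to 5000 genes, 500 to 20000 UMIs and under 5% mitochondrial UMIs were kept. The 2 libraries, with 85101211 and 129113325 UMIs over all barcodes, were integrated and clustered with Seurat 5.3.0 (R 4.3.3; canonical correlation, 30 components, resolution 0.8, 1999 variable genes), with the listed genes removed from the variable genes. Clusters were named from marker lists; a rule that left a cluster unnamed when no marker led it and under 50% of its list passed the limits (a UMI in 20% of cells and 2-fold over the mean of the clusters) was added after the leading genes were seen. Scrublet (scanpy 1.11.5) marked 1 and 0 cells, which was taken as a failed call, and no doublets were removed.

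Counts were summed per class and library, keeping classes with at least 20 cells in both libraries, and tested with edgeR 4.0.16 (TMM, filterByExpr, quasi-likelihood F test, 2-sided, Benjamini-Hochberg adjustment over 15372 genes) with the library as a block, as each library supplied a sum to every class. Pairwise differences between classes came from the same fit, adjusted over all genes. Levels carry exact Poisson 95% intervals, which cover counting error only, and a count of 0 allows up to 3 counts. Shares of UMIs and of cells are given without intervals. The script was checked on simulated counts. The 10 named genes are the listed symbols; of the pathway list, the 3 largest changes per class among those called are named, except 1 gene that is not reported here, as are the 3 genes most like each listed gene. Members, lists and tests were chosen with earlier results of these data known. Other scaling, DESeq2 1.42.0, filters, resolutions, thinning and class limits were tried; leaving out the highest doublet scores, the shallow microglia-like cluster or the neuron-like class was chosen after seeing the data. RGD codons and positions were read from the GRCm38 genome with GENCODE annotation. Figures were drawn with matplotlib 3.10.9.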

Additional observations from a re-analysis of the deposited data

Results flagged for a closer look

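Among cells that no comparison used, those of 9 unnamed clusters, 2 levels exceeded those of every class tested. These levels are pooled over both libraries. Tgfb2 stood at 81.4 CPM (exact Poisson 95% interval 68.1 to 96.5) over the 296 cells of unnamed cluster 26, led by Folr1, Mia and Cyp2f2, above the 31.9 CPM of fibroblast-like cells, whose interval ended at 38.8 CPM. Of the cells of cluster 26, 10 were from C-ON and 286 from FMC_new, so its level rests almost wholly on FMC_new. Astrocyte-like cells, which were not tested, are not part of this ranking. Tgfbr2 stood at 543 CPM (498 to 590) over the 404 cells of unnamed cluster 19, led by Grap2, Themis and Gm2682, above the 189 CPM of NK cell-like cells, whose interval ended at 212 CPM. Cluster 19 passed the limits for 9 of 9 T cell markers. It stayed unnamed for a low UMI count (median 2124.5) without a leading marker. These clusters were picked out for their levels, so both are descriptions with no test.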

How the results depend on the processing

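Of 50 calls, 31 held under every alternative run for them, which was 11 for most but 9 for Tgfb1 and Smad7 in neuron-like and Tgfbr1 in ILC2-like cells and 10 for Nrros in B cell-like cells, and 0 changed sign. Against 33 higher and 17 lower calls, thinning every cell to 1000 UMIs gave 29 higher and 6 lower, and 16 calls were lost there. Among these were the lower calls of Nrros in tumor-like, fibroblast-like, oligodendrocyte-like and neuron-like cells, of Tgfb1 in tumor-like and oligodendrocyte-like cells and of Tgfbr3 in microglia-like and border macrophage-like cells; the cause was not tested. Outside thinning 6 calls were lost: Tgfb1 and Tgfbr2 in B cell-like, Tgfb2 in border macrophage-like, Tgfbr1 in plasma cell-like, and Tgfbr2 in NK cell-like and fibroblast-like cells; the cause was not tested. Without the replicate block there were 31 higher and 17 lower calls. DESeq2 gave 34 and 24, RLE scaling 32 and 17, no filter 36 and 21, and no fold limit 36 and 23. RLE scaling moved the median of all genes in oligodendrocyte-like cells from 0.16 to -0.13 and in neuron-like cells from -0.30 to 0.03 on the log2 scale, with no sign change among the calls. The planned removal of Scrublet doublets was not run, as it marked 1 and 0 cells; without the 6% of cells with the highest scores there were 35 and 24. Each library alone gave the sign of all 50 calls, as values with no test and from the same libraries that gave the calls.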
